A study of Mus musculus with 12 samples.

Results

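Potassium channel genes outside the Kv1 and Kv3 families were followed in acute hippocampal slices of Ptpn11D61Y and control mice. The genes were all those whose symbol starts with Kcn, apart from Kcna1 to Kcna6 and Kcnc1 to Kcnc4. They were found in 86 transcript clusters (the probe sets of the array, about 1 per transcript unit) with a single symbol. For each symbol the cluster of highest mean signal was kept, which gave 81 genes of the 22180 genes with a single symbol. Of these, 72 had a mean log2 signal of at least 5 over the 12 arrays, as did 15868 genes of the array in all, and 9 dimmer ones were kept apart. The rule leaves in Kcna7 and Kcna10, which belong to Kv1, and 3 symbols that are no channel subunits, the noncoding RNAs Kcnd3os and Kcnq1ot1 and the potassium channel regulator Kcnrg.

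Ptpn11D61Y mice were heterozygous for a floxed conditional D61Y allele of Ptpn11, which encodes the phosphatase SHP2 of the Ras/MAPK pathway, and for Emx1IREScre, which drives recombination in forebrain astrocytes and excitatory neurons. Control mice carried the same conditional allele without Emx1IREScre according to the labels, and wild-type Ptpn11 with Emx1IREScre according to the methods. Slices of 3 adult animals per genotype, 8 to 11 weeks old, received a 10 min pulse of 2.5 mM 4AP and 50 µM bicuculline (stimulated, S) or DMSO (basal, B) and then stayed 3 h without drugs, so that 12 Mouse Gene 2.0 ST arrays form the groups Ptpn11D61Y S, Ptpn11D61Y B, control S and control B of 3 arrays each. 4AP blocks many voltage-gated potassium channels, and bicuculline blocks GABAA receptors. The comparisons ask which channel genes differ between the genotypes in the basal and in the stimulated state, and which respond to the pulse in each genotype.

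Potassium channels let potassium leave the cell and so hold the resting potential, end the action potential and limit repetitive firing. Voltage-gated Kv channels open on depolarisation, calcium-activated BK and SK channels couple calcium entry to repolarisation, inward rectifiers (Kir) and tandem pore (K2P) channels set the rest, and auxiliary subunits such as KChIP, Kv beta and Kcne proteins tune the gating or trafficking of the pore. In the hippocampus the A-type current of Kv4, the M-current of KCNQ and the G protein-gated Kir channels are well known brakes on pyramidal cells, while Kcnj10 carries the potassium uptake of astrocytes.

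The promoters of the genes on which the results turn are shown first, as activity pulses act on genes through sites such as the cAMP-response element. The 250 bases before the start of the gene come from RefSeq on build GRCm38.p6 and are written 5′ to 3′ on the strand of the gene, with every CG pair in capitals. Kcnh8 (chr17:52602459-52602708, plus strand) and Kcnh4 (chr11:100759779-100760028, minus strand) encode ELK channels, and Kcne2 (chr16:92292139-92292388, plus strand, the first of its RefSeq starts) encodes an auxiliary subunit.
Kcnh8: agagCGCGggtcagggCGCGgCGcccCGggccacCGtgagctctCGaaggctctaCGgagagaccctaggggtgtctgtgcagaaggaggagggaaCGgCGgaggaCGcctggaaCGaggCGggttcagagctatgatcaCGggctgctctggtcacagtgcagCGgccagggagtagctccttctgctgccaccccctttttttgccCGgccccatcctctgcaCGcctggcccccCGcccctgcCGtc
Kcnh4: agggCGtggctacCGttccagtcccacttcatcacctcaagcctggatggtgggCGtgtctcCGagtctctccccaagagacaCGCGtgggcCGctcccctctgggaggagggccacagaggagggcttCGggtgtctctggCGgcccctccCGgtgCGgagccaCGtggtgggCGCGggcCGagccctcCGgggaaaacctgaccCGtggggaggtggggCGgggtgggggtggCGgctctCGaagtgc
Kcne2: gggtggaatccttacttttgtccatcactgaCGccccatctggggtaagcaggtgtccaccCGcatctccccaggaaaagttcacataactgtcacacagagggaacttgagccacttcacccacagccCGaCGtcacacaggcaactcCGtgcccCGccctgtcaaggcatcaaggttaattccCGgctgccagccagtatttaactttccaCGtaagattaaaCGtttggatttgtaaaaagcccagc
The ELK promoters held 20 CG pairs each, with a G+C content of 68.4% in Kcnh8 and 70.8% in Kcnh4, and the Kcne2 promoter held 9 with 52.4% G+C. Of the 81 genes, 62 were matched in the promoter table, with a median of 10 CG pairs and 61.4% G+C, against 6 CG pairs and 52.8% over the 27025 genes of the table. A gene with several starts in that table took its highest CG count and G+C content. Motifs were searched on both strands, and a gene held a motif if any of its windows did. Genes with more starts thus had more chances to hold a motif. The full cAMP-response element TGACGTCA was in 0 of the 62 genes, against 1.77% of all. Its part TGACG, which the full element also contains, was in 12 of them (19.4%, against 19.8%), among them Kcne2, Kcnh5 and Kcng3. The AP-1 site TGANTCA was in 4 (6.45%, against 7.82%), the EGR site GCGTGGGCG in 0 (against 0.622%) and the CArG box in 0 (against 1.62%). TATAAA was in 2, Kcnj16 and Kcnj9 (3.23%, against 14.3%). None of the listed motifs was in the windows of Kcnh8 and Kcnh4.

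All 11 neuron markers were measured, and the lowest log2 signal of any of them on any array was 6.67. Ptpn11 itself had a log2 fold change of -0.09 ± 0.20 (SE) in Ptpn11D61Y B vs. control B, and the array does not read the D61Y codon. The 4 arrays numbered 1, 1 per group, stood apart from the other 8. Their median correlation with the other arrays was 0.877 to 0.911, against 0.942 to 0.957 for the others, and the median of the 72 genes was at -0.36 to -0.22 on them relative to the mean over arrays. Of the 72 genes, 23 were lower on all 4 of these arrays than on any other, and 0 were higher, against 30.8% and 0.592% of the 15868 genes. Such genes were Kcnj16 (by -2.35 on the log2 scale), Kcnip3 (-2.32), Kcnj8 (-1.69), Kcnh3 (-1.60) and Kcnip4 (-1.54), so that their spread within a group was wide. A further array, Ptpn11D61Y B replicate 3, held a strong choroid plexus signal, described with Kcne2. Fewer cells of a type and less RNA per cell cannot be told apart in slices.

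**Figure D1:**
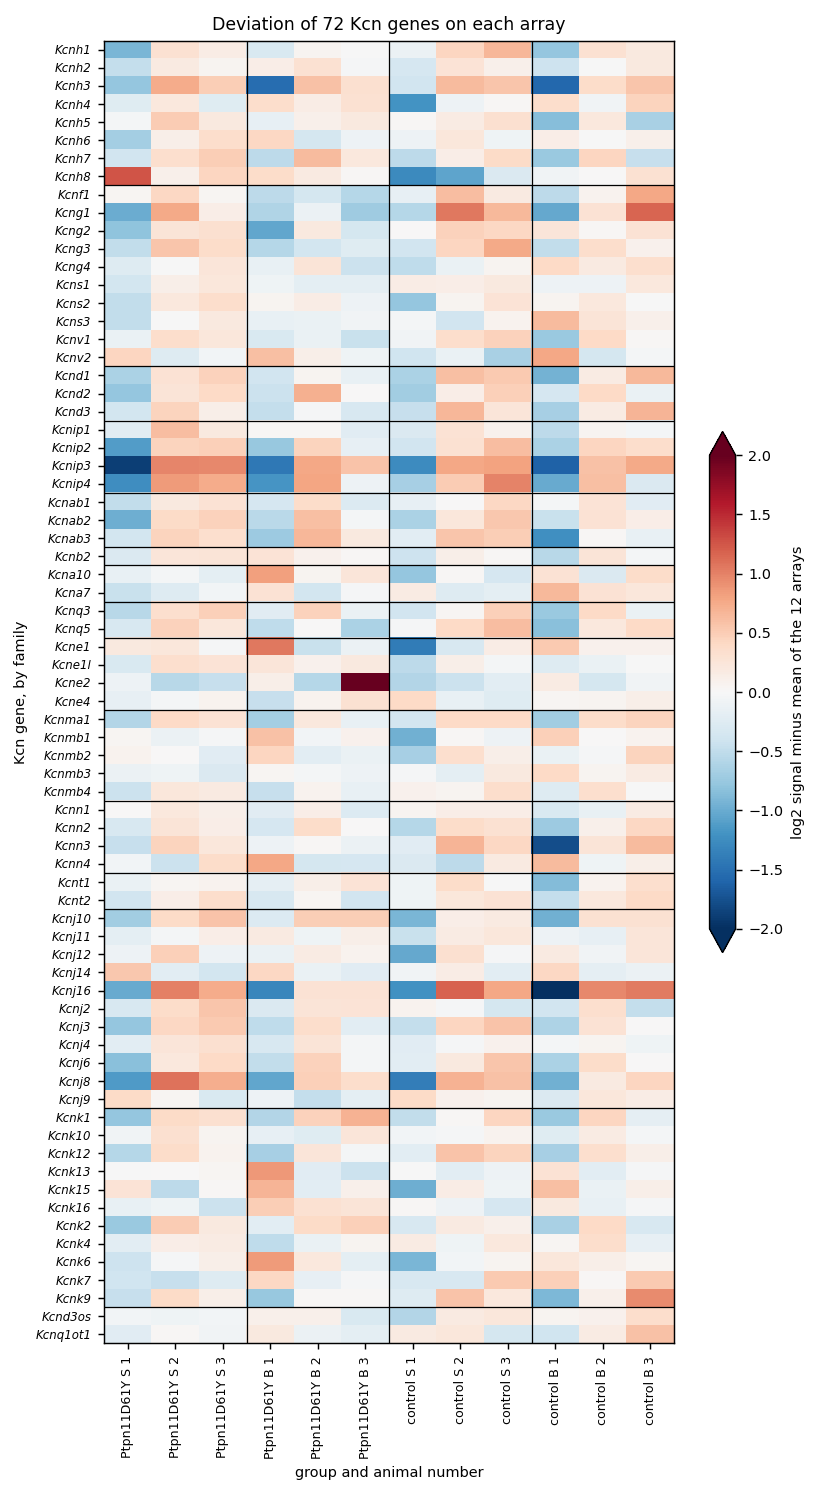
Log2 signal of the 72 brighter Kcn genes on each array minus the gene's mean over the 12 arrays (colour; rows are genes ordered by family, columns are the arrays by group and animal number). The columns numbered 1 are blue for KChIP genes, Kcnh3 and Kcnj16, Kcnh8 is blue in control S, and Kcne2 is deep red on Ptpn11D61Y B replicate 3 alone.

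Across the 72 genes, few passed the filter of the study's methods, an unadjusted p under 0.05 together with a 1.5-fold or larger change, and 0 passed an adjusted p of 0.05 in any comparison (limma with Benjamini-Hochberg adjustment over all 41345 clusters). In Ptpn11D61Y B vs. control B 0 of 72 passed, 0 of them at an unadjusted p under 0.05 alone, beside 0.447% of the 15868 genes passing as higher and 0.151% as lower. In Ptpn11D61Y S vs. B 0 passed and 1, Kcnk16, had an unadjusted p under 0.05, beside 0.0756% of the genes higher and 0.202% lower. In control S vs. B, 2 genes passed as lower, Kcnh8 and Kcnh4, beside 0.0756% of the genes higher and 1.66% lower. In Ptpn11D61Y S vs. control S, 1 gene passed as higher, Kcnh8, beside 0.473% higher and 0.0189% lower. The interaction, the S minus B response of Ptpn11D61Y less that of control, passed as higher for Kcnh8 alone, beside 0.189% higher and 0.0504% lower. The count of 2 in 72 lower genes in control S vs. B therefore lies near the share of all genes.

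The 72 genes lay on both sides of 0 in each comparison. In Ptpn11D61Y B vs. control B 34 were above 0 and 38 below with a median of -0.01, in Ptpn11D61Y S vs. B 39 and 33 with 0.04, in control S vs. B 42 and 30 with 0.08, and in Ptpn11D61Y S vs. control S 31 and 41 with -0.03. The medians of the 15868 genes were 0.00, 0.02, 0.05 and -0.01 in the same comparisons. The counts moved with the scaling. With the arrays centred on a common median, 54 genes were above 0 and 18 below in control S vs. B (median 0.28, against 0.25 over all genes), and 19 above and 53 below in Ptpn11D61Y S vs. control S (median -0.18, against -0.16). Without the arrays numbered 1, 53 were above and 19 below in Ptpn11D61Y S vs. B (median 0.19, against 0.09). With the animal as a random block, since S and B slices of a number came from 1 animal, 1 gene passed in Ptpn11D61Y S vs. B (Kcnf1, higher) and 4 in control S vs. B (Kcnh8 and Kcnh4 lower, Kcnh5 and Kcnab3 higher), beside 0.517% and 2.8% of all genes in either direction in that fit. The groups did not overlap for 4 of 72 genes in Ptpn11D61Y B vs. control B, 4 in Ptpn11D61Y S vs. B, 4 in control S vs. B and 2 in Ptpn11D61Y S vs. control S, beside 3.57%, 4.03%, 8.31% and 4.51% of all genes. The median SE of a gene was 0.31, and the 95% interval lay within 1.5-fold either way for 5, 7, 8 and 8 of the 72 genes in these comparisons. These were 6.94%, 9.72%, 11.1% and 11.1% of the 72 genes, beside 17.2%, 16.7%, 13.5% and 17.6% of the 15868 genes. For the others of the 72 genes the interval reached past 1.5-fold.

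**Figure D2:**
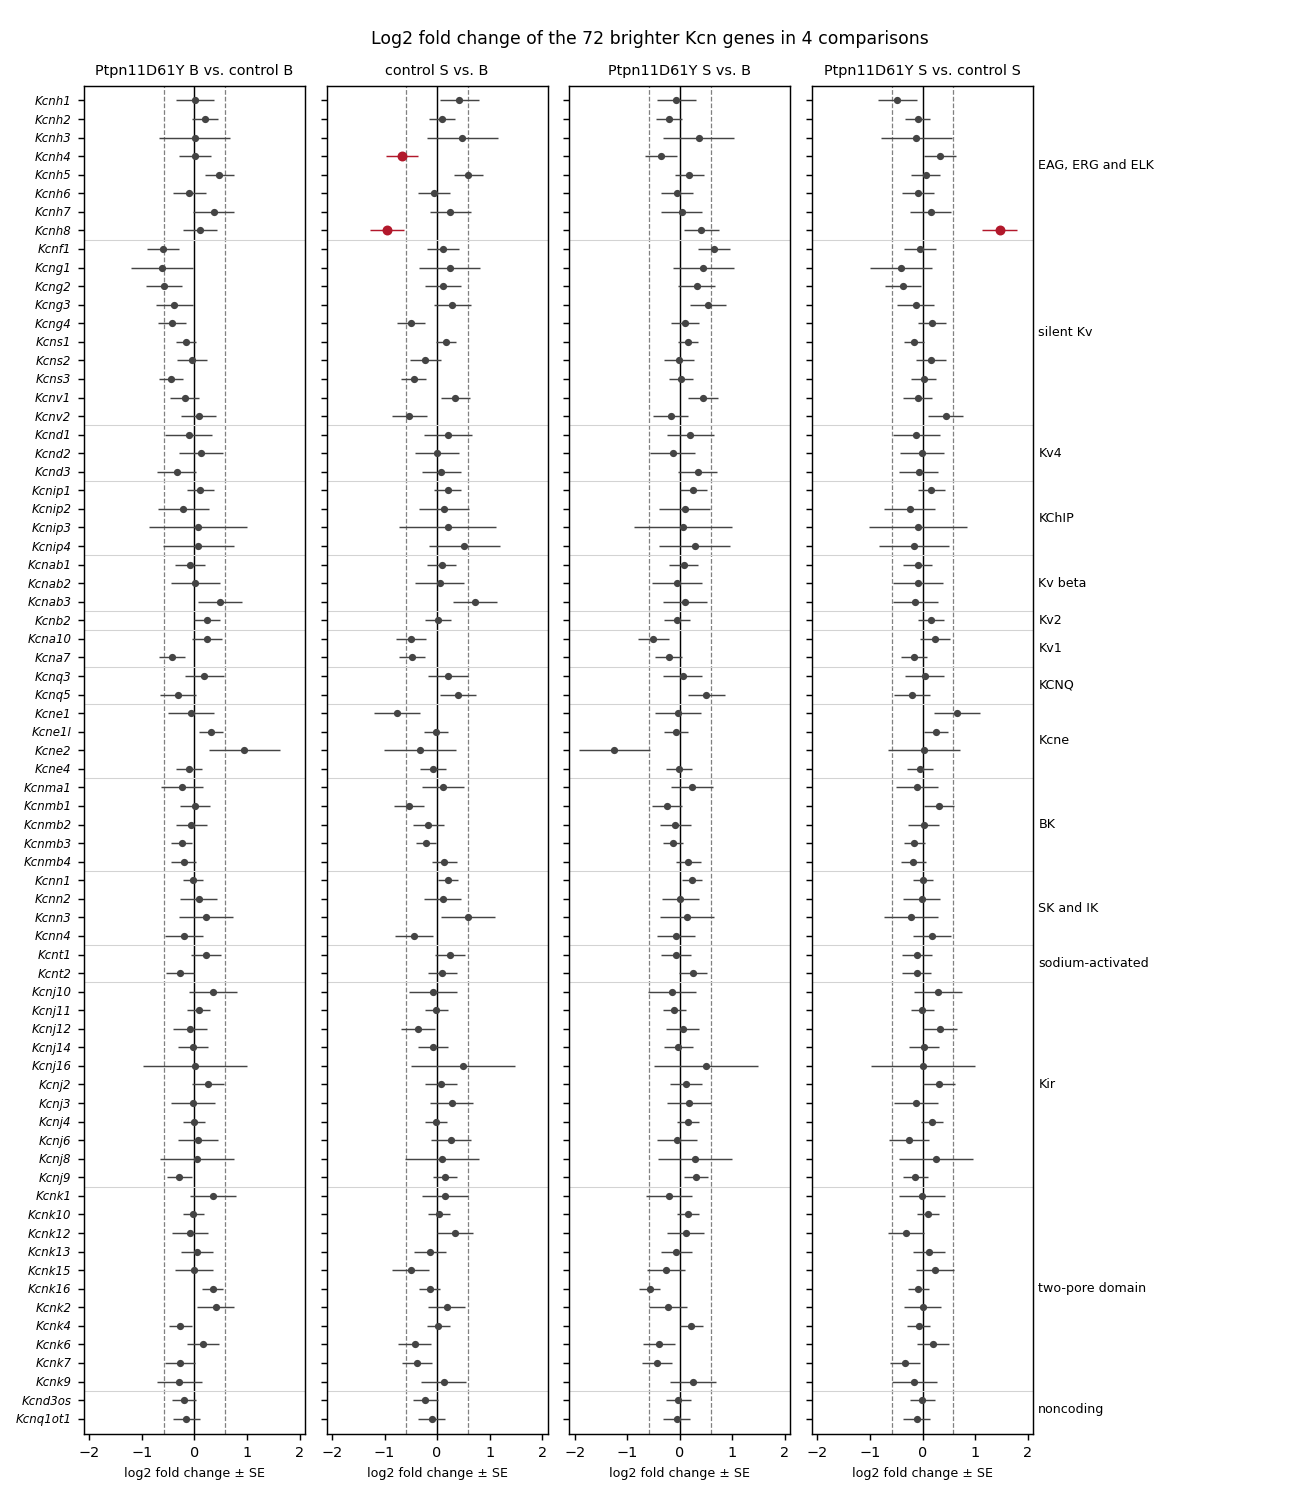
Log2 fold change (points) with its SE (bars) of the 72 brighter Kcn genes in the 4 comparisons, by family; dashed lines mark 1.5-fold and red points passed the filter. Kcnh8 at 1.47 in Ptpn11D61Y S vs. control S, and Kcnh8 at -0.95 and Kcnh4 at -0.67 in control S vs. B, are the red points.

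The widest genotype difference of the group was that of Kcnh8. Kcnh8, with Kcnh3 and Kcnh4, forms the ELK family of slowly closing voltage-gated channels that open below the spike threshold. Its log2 signals were 6.98, 5.82 and 6.14 in Ptpn11D61Y S (replicates 1 to 3), against 4.44, 4.67 and 5.43 in control S. Every Ptpn11D61Y S array was above every control S array. The control S mean of Kcnh8 was 4.85, under the edge of 5 that set the dim genes apart. Control S replicate 1, which had its lowest value, also had the lowest median signal of the arrays (36.5). On that array 5.29% of the clusters were under the floor of 1, against 1.69% to 3.34% on the others. The log2 fold change was 1.47 ± 0.33 (95% interval 0.75 to 2.19, unadjusted p = 0.00085, adjusted p = 1), and the exact two-sided permutation test gave 0.1, the smallest p that 3 against 3 arrays allow. In the basal state Kcnh8 had 6.08, 5.89 and 5.73 in Ptpn11D61Y B and 5.65, 5.72 and 6.03 in control B, and these groups overlapped, with a log2 fold change of 0.10 ± 0.33.

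The response of Kcnh8 to the pulse in Ptpn11D61Y slices was a log2 fold change of 0.41 ± 0.33 (unadjusted p = 0.238), with S minus B differences of 0.89, -0.07 and 0.40 in animals 1 to 3. In control slices it was lower in S than in B, with a log2 fold change of -0.95 ± 0.33 (unadjusted p = 0.0139, adjusted p = 0.912). Each control animal had the lower signal in its S slices, with differences of -1.20, -1.06 and -0.60 in animals 1 to 3. The interaction was 1.36 ± 0.47 (95% interval 0.34 to 2.38, unadjusted p = 0.0131, adjusted p = 1). The response of Kcnh8 in control S vs. B no longer passed without control S replicate 1 (-0.75, unadjusted p = 0.0581) or without control B replicate 3 (-0.84, unadjusted p = 0.0508). Without the 4 arrays numbered 1, the log2 fold change of Kcnh8 was 0.93 in Ptpn11D61Y S vs. control S and -0.83 in control S vs. B. With an offset of 16 added before the log2, these values were 1.09 and -0.67. The comparisons that use control S share its arrays.

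**Figure D3:**
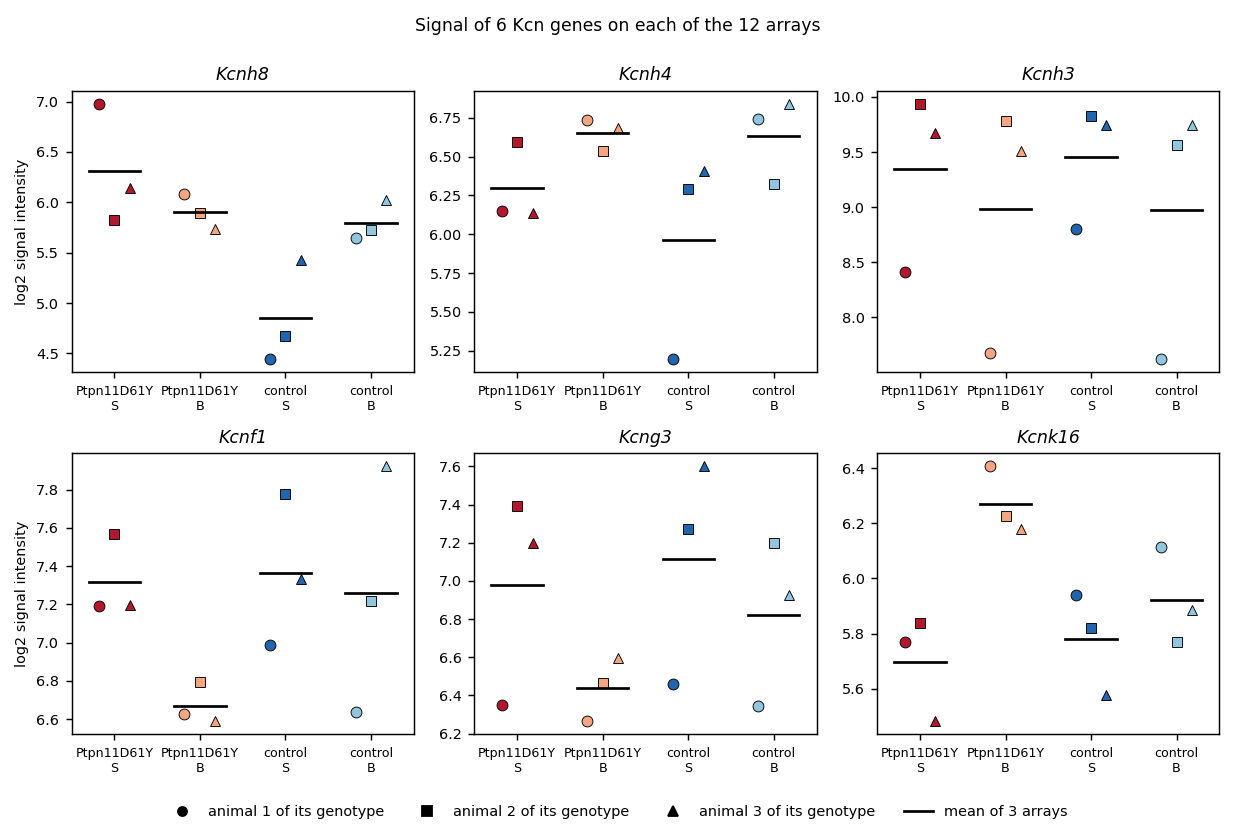
Log2 signal intensity of 6 Kcn genes on each of the 12 arrays (points, shaped by animal number within a genotype; lines are means of 3 arrays). Kcnh8 runs from 4.44 to 5.43 in control S and from 5.65 to 6.98 on the other 9 arrays, Kcnf1 from 7.19 to 7.57 in Ptpn11D61Y S and from 6.59 to 6.79 in Ptpn11D61Y B, and Kcnk16 from 6.18 to 6.41 in Ptpn11D61Y B and from 5.48 to 6.11 on the other 9.

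The other ELK genes were read beside it. Kcnh4 had 6.15, 6.60 and 6.14 in Ptpn11D61Y S and 6.74, 6.54 and 6.68 in Ptpn11D61Y B (log2 fold change -0.36 ± 0.30). In control it had 5.20, 6.29 and 6.41 in control S and 6.74, 6.32 and 6.84 in control B. These groups overlapped, and control S replicate 1 was far below the others. The log2 fold change was -0.67 ± 0.30 (unadjusted p = 0.0477, adjusted p = 0.912), and it was -0.29 without control S replicate 1. Kcnh3, whose loss makes hippocampal neurons of mice hyperexcitable, had 8.41, 9.94 and 9.68 in Ptpn11D61Y S, 7.67, 9.78 and 9.51 in Ptpn11D61Y B, 8.80, 9.83 and 9.74 in control S and 7.62, 9.56 and 9.75 in control B. The arrays numbered 1 were the lowest of each group, and the 4 log2 fold changes of Kcnh3 lay between -0.12 and 0.48 with an SE of 0.67.

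The EAG and ERG genes of the same superfamily, which carry non-inactivating and slowly deactivating currents, were also compared. Kcnh5 (EAG) had 6.34, 6.48 and 6.64 in control S and 5.47, 6.53 and 5.68 in control B. The groups overlapped through control B replicate 2, and the log2 fold change was 0.59 ± 0.27 (unadjusted p = 0.0508). Kcnh5 did not pass the filter, and it did with the animal as a block. In Ptpn11D61Y B vs. control B it was 0.48 ± 0.27. Kcnh1 (EAG) had 6.37, 7.60 and 7.44 in Ptpn11D61Y S and 7.17, 7.72 and 7.94 in control S, with overlapping groups and a log2 fold change of -0.48 ± 0.37. The ERG genes Kcnh2, Kcnh6 and Kcnh7 had log2 fold changes between -0.21 and 0.37 in the 4 comparisons.

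The silent Kv subunit genes lay mostly below 0 in the basal mutant. These 10 genes (Kcnf1, Kcng1 to Kcng4, Kcns1 to Kcns3, Kcnv1 and Kcnv2) make proteins that form no channel alone and join Kv2 subunits to alter their gating. In Ptpn11D61Y B vs. control B 9 of 10 were below 0 with a median of -0.40, and 0 passed the filter. Of the 15868 genes 49.2% were below 0, with a median of 0.00. No other family had a median as far from 0 in this comparison. The 10 genes were read on the same 6 arrays, so that they are not 10 independent observations. In Ptpn11D61Y S vs. B 8 of 10 were above 0 with a median of 0.23, and 0 passed, beside 8492 of the 15868 genes above 0. Both comparisons use the Ptpn11D61Y B arrays. In control S vs. B 6 of 10 were above 0 (median 0.11). The count was 4 of 10 above 0 in Ptpn11D61Y S vs. control S (median -0.07).

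Kcnf1 had the largest difference of them in Ptpn11D61Y S vs. B. It had 7.19, 7.57 and 7.20 in Ptpn11D61Y S and 6.63, 6.79 and 6.59 in Ptpn11D61Y B. These groups did not overlap, and the 3 animals differed by 0.56, 0.77 and 0.61 between S and B. The log2 fold change was 0.65 ± 0.31 (unadjusted p = 0.0557, adjusted p = 1, exact two-sided permutation p = 0.1). In control it had 6.99, 7.78 and 7.33 in S and 6.63, 7.22 and 7.92 in B, which overlapped, with a log2 fold change of 0.11 ± 0.31. The basal genotype difference of Kcnf1 was -0.59 ± 0.31 (unadjusted p = 0.0786), and its interaction was 0.54 ± 0.43 (unadjusted p = 0.235).

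The Kcng genes were more variable between arrays. Kcng1 had 6.75, 7.23 and 6.63 in Ptpn11D61Y B and 6.32, 7.63 and 8.51 in control B (log2 fold change -0.62 ± 0.59). Kcng2 had 6.86, 8.09 and 7.54 in Ptpn11D61Y B and 8.13, 7.92 and 8.19 in control B (-0.58 ± 0.35, unadjusted p = 0.12). Both pairs of groups overlapped. Kcng3 had 6.35, 7.39 and 7.20 in Ptpn11D61Y S and 6.26, 6.47 and 6.59 in Ptpn11D61Y B (0.54 ± 0.35), overlapping through Ptpn11D61Y S replicate 1. Kcng4, at the lower edge of the brighter genes, was at 0.10 ± 0.27 in Ptpn11D61Y S vs. B and -0.50 ± 0.27 in control S vs. B, with an interaction of 0.61 ± 0.38 that did not pass the filter (unadjusted p = 0.134).

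Kcns3 had 5.95, 5.96 and 6.03 in Ptpn11D61Y B, against 6.72, 6.36 and 6.20 in control B. These groups did not overlap, with a log2 fold change of -0.45 ± 0.23 (unadjusted p = 0.0797). Its control S arrays, at 6.06, 5.71 and 6.17, were also below control B (-0.45 ± 0.23, unadjusted p = 0.0796). Kcnv1 was at 0.44 ± 0.28 in Ptpn11D61Y S vs. B and 0.35 ± 0.28 in control S vs. B, and Kcnv2 at 0.44 ± 0.33 in Ptpn11D61Y S vs. control S and -0.53 ± 0.33 in control S vs. B. Kcns1 and Kcns2 had log2 fold changes between -0.22 and 0.16.

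The neuron markers moved beside these genes. Of the 11 neuron markers, 10 were below 0 in Ptpn11D61Y B vs. control B (median -0.18) and 10 above 0 in Ptpn11D61Y S vs. B (median 0.34), and 10 were above 0 in control S vs. B (median 0.28). Their summed signal was 10909 to 26869 in Ptpn11D61Y S, 11353 to 24602 in Ptpn11D61Y B, 13859 to 28642 in control S and 10828 to 23808 in control B, and 0 of them were at the floor. On the 3 Ptpn11D61Y B arrays the median deviation of the silent Kv genes was -0.23, -0.12 and -0.30, and that of the neuron markers was -0.68, 0.45 and -0.49. The part of the neuron markers in the silent Kv result was not tested. Without the 4 arrays numbered 1, which leaves 2 against 2 arrays, 9 of 10 silent Kv genes were below 0 in Ptpn11D61Y B vs. control B (median -0.32) and 9 of 10 above 0 in Ptpn11D61Y S vs. B (median 0.36). Without Ptpn11D61Y B replicate 3 these counts were 8 of 10 below 0 (median -0.36) and 7 of 10 above 0 (median 0.23). In the fit without the arrays numbered 1, Kcnf1 and Kcng1 passed as lower in the basal mutant (-0.88 and -1.14), together with Kcnq5, Kcnd3 and Kcnj16, and Kcnf1, Kcng1, Kcng3 and Kcnq5 passed as higher in Ptpn11D61Y S vs. B (0.69, 0.86, 0.77 and 0.66), with adjusted p-values of at least 0.567 (limma). These 5 and 4 genes of 72 stand beside 2.41% and 2.29% of all genes in the same fits.

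**Figure D4:**
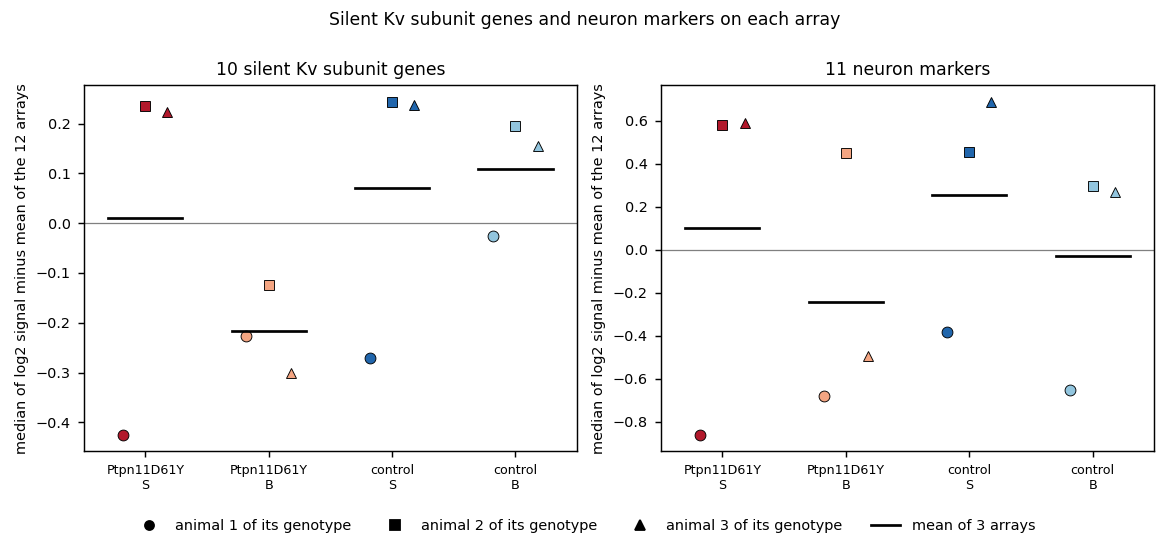
Median deviation of the 10 silent Kv genes (left) and of 11 neuron markers (right) from their mean over the 12 arrays, on the log2 scale, per array (points shaped by animal number; lines are means of 3 arrays). The silent Kv genes lie below 0 on the 3 Ptpn11D61Y B arrays, at -0.23, -0.12 and -0.30, and on the other arrays numbered 1, and the neuron markers are low on the arrays numbered 1 and on Ptpn11D61Y B replicate 3.

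The Kv4 channels and their partners differed by less than their spread. Kcnd2, the main subunit of the dendritic A-type current of CA1 pyramidal cells, had 9.02, 10.06 and 10.19 in Ptpn11D61Y S, 9.37, 10.50 and 9.81 in Ptpn11D61Y B, 9.11, 9.92 and 10.27 in control S and 9.46, 10.19 and 9.66 in control B. All 4 groups overlapped, and its log2 fold changes lay between -0.14 and 0.12 with an SE of 0.43. Kcnd3 was at -0.34 ± 0.37 in Ptpn11D61Y B vs. control B and 0.34 ± 0.37 in Ptpn11D61Y S vs. B. Kcnd1 lay between -0.12 and 0.21. Kcnb2, a Kv2 gene, lay between -0.06 and 0.24.

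The 4 KChIP genes, calcium-binding subunits of Kv4, were above 0 in both responses, with medians of 0.18 in Ptpn11D61Y S vs. B and 0.20 in control S vs. B, and 0 passed. With the quantile normalization repeated, 3 of 4 were above 0 in Ptpn11D61Y S vs. B. Kcnip4 was at 0.28 ± 0.67 in Ptpn11D61Y S vs. B and 0.52 ± 0.67 in control S vs. B. Kcnip3, also known as the calcium-dependent repressor DREAM, had 7.02, 9.88 and 9.86 in Ptpn11D61Y S, 7.47, 9.67 and 9.47 in Ptpn11D61Y B, 7.65, 9.67 and 9.70 in control S and 7.28, 9.49 and 9.66 in control B. Within each group replicates 2 and 3 lay close together with replicate 1 far below them, and the SE of its log2 fold changes was 0.93. Kcnip2 lay between -0.25 and 0.13 and Kcnip1 between 0.11 and 0.26.

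Of the Kv beta subunits, which attach to the inner side of Kv channels, Kcnab1 and Kcnab2 lay between -0.09 and 0.08. Kcnab3 had 5.87, 6.63 and 6.57 in control S and 4.85, 6.11 and 5.94 in control B. The groups overlapped, with a log2 fold change of 0.72 ± 0.42 (unadjusted p = 0.113), and each control animal was higher in S. Its second cluster, of lower signal, was at -0.43 in the same comparison, so that the clusters of Kcnab3 differ in sign.

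Kcnq3 and Kcnq5 make subunits of the M-current, a slow brake on firing that muscarinic receptors close. Kcnq5 had 8.47, 9.25 and 9.01 in Ptpn11D61Y S and 8.28, 8.79 and 8.15 in Ptpn11D61Y B, and 8.75, 9.18 and 9.40 in control S and 7.95, 9.003 and 9.19 in control B. The groups overlapped in both genotypes, but all 3 animals of each genotype were higher in S than in B. The log2 fold changes were 0.51 ± 0.35 in Ptpn11D61Y S vs. B and 0.40 ± 0.35 in control S vs. B. A second, dimmer cluster of Kcnq5 was at -0.25 and -0.23 in the same comparisons. Kcnq3 lay between 0.04 and 0.21.

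The calcium- and sodium-activated channels showed small differences. Kcnma1, the pore of the BK channel that repolarises spikes, had 8.83, 9.81 and 9.70 in Ptpn11D61Y S, 8.74, 9.62 and 9.27 in Ptpn11D61Y B, 9.04, 9.81 and 9.82 in control S and 8.71, 9.78 and 9.85 in control B. Its log2 fold changes lay between -0.24 and 0.24 with an SE of 0.40. Kcnmb4, the BK beta subunit of neurons, lay between -0.20 and 0.16 and Kcnmb3, the least variable BK gene, between -0.24 and -0.13. Kcnmb1, best known from smooth muscle, was at -0.54 ± 0.28 in control S vs. B (unadjusted p = 0.0818), with control S replicate 1 at 5.06 and the other 11 arrays at 5.90 to 6.61. In Ptpn11D61Y B vs. control B 4 of 5 BK genes were below 0, with a median of -0.20.

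The SK genes Kcnn1, Kcnn2 and Kcnn3, which carry the afterhyperpolarisation that follows a spike train, were above 0 in both responses. Kcnn3 was at 0.58 ± 0.51 in control S vs. B, where control B replicate 1 had 5.80 and the other 2 control B arrays 7.83 and 8.20. Kcnn1 was among the least variable of all 72 genes, with an SD of 0.19 over the 12 arrays, and was at 0.23 ± 0.19 in Ptpn11D61Y S vs. B and 0.20 ± 0.19 in control S vs. B. Kcnn2 lay between -0.01 and 0.11. The sodium-activated channels Kcnt1 and Kcnt2 lay between -0.27 and 0.25.

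Among the inward rectifiers 0 of 11 passed in any comparison. The G protein-gated genes Kcnj3, Kcnj6 and Kcnj9, through which GABAB and other receptors hyperpolarise neurons, lay between -0.28 and 0.30. Kcnj9 was at -0.28 ± 0.23 in Ptpn11D61Y B vs. control B, with 8.11, 7.74 and 8.02 in Ptpn11D61Y B and 7.92, 8.44 and 8.37 in control B. These groups overlapped. The Kir2 genes Kcnj2, Kcnj4, Kcnj12 and Kcnj14 lay between -0.36 and 0.33, and Kcnj11, the pore of the neuronal ATP-sensitive channel, between -0.10 and 0.08.

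The astrocyte and pericyte members Kcnj10, Kcnj16 and Kcnj8 were lower on the arrays numbered 1 than on any other array. So were neuronal members such as Kcnip3 and Kcnh3, and 30.8% of the 15868 genes. The members known from microglia, Kcnk6, Kcnk13 and Kcnn4, overlapped. Their arrays numbered 1 differed from the others by -0.10, 0.43 and 0.40. Kcnj10, the astrocyte channel that clears potassium, had 8.27, 9.35 and 9.54 in Ptpn11D61Y S, 8.70, 9.46 and 9.46 in Ptpn11D61Y B, 8.05, 9.10 and 9.15 in control S and 8.01, 9.28 and 9.28 in control B. The groups overlapped through the arrays numbered 1, and the exact two-sided permutation test gave 0.5 in both states. Among the other arrays, 2 against 2 in each state, every Ptpn11D61Y value was above every control value. The share of all genes that separate in this way was not computed. The log2 fold changes were 0.35 ± 0.46 in B and 0.28 ± 0.46 in S. The 9 astrocyte markers had medians of 0.22 and 0.16 in these comparisons, 8 and 9 of 9 being above 0, and 0 passed. Of the 7 oligodendrocyte markers measured, 7 were above 0 in both states (medians 0.29 in B and 0.31 in S, with 2 and 1 past the filter). So were 5 of 5 markers of oligodendrocyte precursors (medians 0.43 and 0.39, with 2 and 0 past the filter). Of the 15868 genes, 0.447% in B and 0.473% in S passed as higher. The direction was not particular to glia. Mural cell markers were above 0 in 10 and 9 of 10, and endothelial markers in 7 of 9 in both states. Microglia markers were above 0 in 5 and 3 of 7, and neuron markers in 1 of 11 in both states. The summed signal of the 7 oligodendrocyte markers was 4311 to 7203 in Ptpn11D61Y S and 4102 to 5643 in control S, and 4871 to 8115 in Ptpn11D61Y B and 4116 to 5883 in control B, with 0 at the floor. The part of the glial markers in the values of Kcnj10 and Kcnh8 was not tested. Kcnj16, which joins Kcnj10 in astrocytes, had the widest SD of all 72 genes, 1.26, with 3.91 on control B replicate 1, 5.37 to 5.67 on the other arrays numbered 1 and 6.96 to 7.84 elsewhere. Kcnj8, the pericyte channel, had 4.13 to 4.55 on the arrays numbered 1 and 5.68 to 6.59 on the others. The median deviation of 10 mural cell markers on the arrays numbered 1 was 0.16 in control B and -0.23 in control S. It was 0.46 in Ptpn11D61Y B and 0.16 in Ptpn11D61Y S.

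The K2P genes, which carry leak currents, lay on both sides of 0. In Ptpn11D61Y S vs. B 7 of 11 were below 0 with a median of -0.21, and 5 of 11 were below 0 in control S vs. B with a median of 0.03. With the arrays centred on a common median 6 of 11 were below 0 in Ptpn11D61Y S vs. B, and 5 of 11 without the arrays numbered 1, where the median was 0.04. The lowest was Kcnk16, a channel best known from the pancreas. Kcnk16 had 5.77, 5.84 and 5.48 in Ptpn11D61Y S, against 6.41, 6.23 and 6.18 in Ptpn11D61Y B. The groups did not overlap, with a log2 fold change of -0.57 ± 0.20 (95% interval -1.01 to -0.14, unadjusted p = 0.0144, adjusted p = 1), just short of 1.5-fold. In control the log2 fold change was -0.14 ± 0.20, with 5.94, 5.82 and 5.58 in S and 6.11, 5.77 and 5.89 in B. The interaction of Kcnk16 was -0.43 ± 0.28 (unadjusted p = 0.156).

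Kcnk7 was at -0.44 ± 0.29 in Ptpn11D61Y S vs. B and -0.38 ± 0.29 in control S vs. B. The neuronal leak channels Kcnk9, Kcnk2, Kcnk4 and Kcnk10 lay between -0.29 and 0.40. Kcnk9 had 7.25, 8.04 and 8.03 in Ptpn11D61Y B and 7.11, 8.12 and 8.96 in control B (-0.29 ± 0.43). Kcnk1, which astrocytes express strongly, was at 0.35 ± 0.44 in the same comparison. Kcnk6 and Kcnk13 and the calcium-activated Kcnn4, all known from microglia, lay between -0.44 and 0.20, and the 7 measured microglia markers had medians between -0.10 and 0.09 in the 4 comparisons.

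The Kcne genes encode small subunits with 1 membrane span. All 4 brighter ones were below 0 in both responses, with medians of -0.05 in Ptpn11D61Y S vs. B and -0.20 in control S vs. B, but 2 of 4 were above 0 in both once the arrays were centred on a common median. Kcne1 had 3.67, 4.75 and 5.22 in control S and 5.59, 5.16 and 5.16 in control B (-0.76 ± 0.44), the lowest value being that of control S replicate 1. In Ptpn11D61Y S it had 5.26, 5.29 and 5.05, and Ptpn11D61Y S vs. control S was at 0.65 ± 0.44 (unadjusted p = 0.16). Kcne1l was at 0.31 ± 0.23 in Ptpn11D61Y B vs. control B and Kcne4 between -0.10 and -0.01.

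Kcne2, a subunit of the apical potassium channels of the choroid plexus, stood out on 1 array. It had 9.24 on Ptpn11D61Y B replicate 3, and 5.61 to 6.36 on the other 11 arrays. Its log2 fold changes were 0.95 ± 0.68 in Ptpn11D61Y B vs. control B and -1.24 ± 0.68 in Ptpn11D61Y S vs. B (unadjusted p = 0.0931), and neither passed. Choroid plexus markers were high on the same array. Ttr was at 13.01 there and at 4.59 to 7.18 elsewhere, and Clic6 at 9.98, against 4.35 to 5.60. Of 11 choroid plexus markers 9 were measured, their summed signal was 480 to 629 in Ptpn11D61Y S, 664 to 12945 in Ptpn11D61Y B, 387 to 604 in control S and 498 to 595 in control B, and 0 of them were at the floor. Their median deviation was 1.56 on Ptpn11D61Y B replicate 3 and -0.79 to 0.35 on the other arrays. Without that array Kcne2 was at -0.14 in Ptpn11D61Y B vs. control B and -0.16 in Ptpn11D61Y S vs. B.

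**Figure D5:**
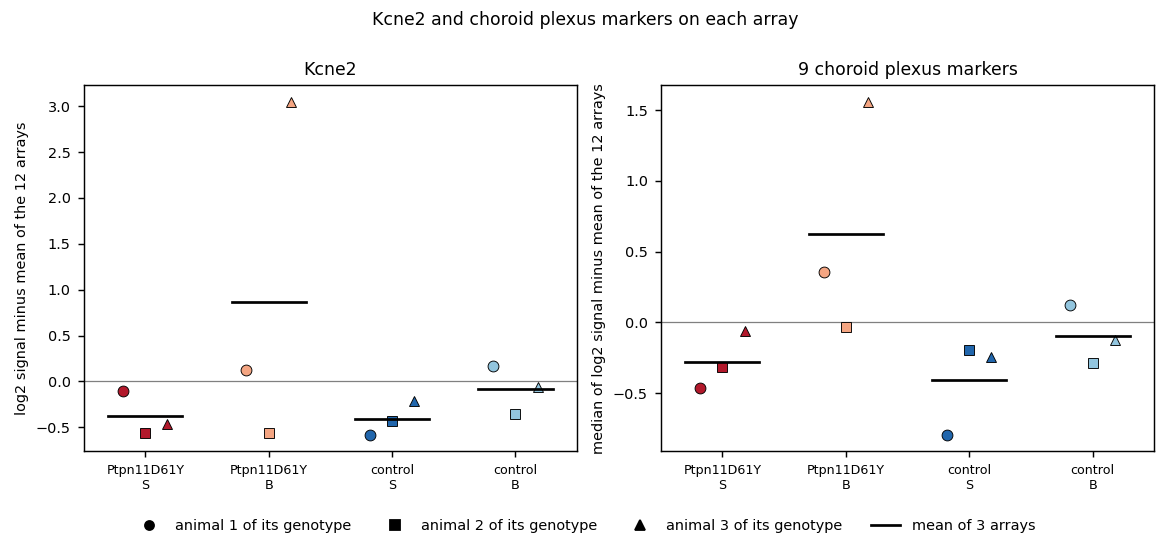
Deviation of Kcne2 (left) and median deviation of 9 choroid plexus markers (right) from the mean over the 12 arrays, on the log2 scale, per array (points shaped by animal number; lines are means of 3 arrays). Both are highest on Ptpn11D61Y B replicate 3, at 3.04 for Kcne2 and 1.56 for the markers.

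The symbol rule also left in the Kv1 genes Kcna7 and Kcna10. Kcna7 was at -0.48 ± 0.25 in control S vs. B (unadjusted p = 0.0813) and -0.43 ± 0.25 in Ptpn11D61Y B vs. control B, with 5.44, 5.02 and 5.08 in control S below the 5.92, 5.57 and 5.50 of control B. Kcna10 had 5.48, 5.59 and 5.43 in Ptpn11D61Y S, against 6.45, 5.68 and 5.86 in Ptpn11D61Y B (-0.50 ± 0.29, unadjusted p = 0.107), and these groups did not overlap. The noncoding RNAs Kcnd3os and Kcnq1ot1 lay between -0.22 and -0.01 in the 4 comparisons.

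The 9 dim genes were Kcne3, Kcnj1, Kcnj15, Kcnj5, Kcnk18, Kcnk5, Kcnq1, Kcnrg and Kcnu1. The edge at a mean log2 of 5 falls between Kcne1 (5.07) and Kcng4 (5.00) above it and Kcnq1 (4.98) and Kcne3 (4.96) below it. In control S vs. B 8 of the 9 were below 0, with a median of -0.32, and Kcnk18 passed the filter at -1.02 ± 0.43 (unadjusted p = 0.0368, adjusted p = 0.912). Kcnk18 had 3.53, 4.47 and 4.51 in control S and 5.93, 5.02 and 4.61 in control B. The groups did not overlap by a narrow margin, and without control S replicate 1 the log2 fold change was -0.70, without control B replicate 1 -0.64. Of the 6312 genes under this edge, 3.71% passed as lower in control S vs. B. Kcnk18 passed in 14 of 21 alternatives, with values of -1.30 to -0.32. In the fits that left out a Ptpn11D61Y array its log2 fold change could not move.

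Partners of these channels whose symbols do not start with Kcn were read beside them. Of 21 such genes 18 were measured, and 0 passed the filter in any comparison. The Kv4 partners Dpp6 and Dpp10 were at 0.12 and 0.44 in Ptpn11D61Y S vs. B and at 0.07 and 0.27 in control S vs. B. Abcc8 and Abcc9, the sulfonylurea receptors of ATP-sensitive channels, lay between -0.24 and 0.30. Ank3, which anchors KCNQ channels at the axon initial segment, was at -0.17 in Ptpn11D61Y B vs. control B and 0.16 in Ptpn11D61Y S vs. B. The medians of the partners were -0.06 in Ptpn11D61Y B vs. control B, 0.14 in control S vs. B, 0.15 in Ptpn11D61Y S vs. B and -0.04 in Ptpn11D61Y S vs. control S.

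The responses of single animals differed. The median S minus B difference of the 72 genes was -0.21, 0.08 and 0.27 in Ptpn11D61Y animals 1 to 3 and 0.14, 0.03 and -0.02 in control animals 1 to 3. In Ptpn11D61Y 15 genes were higher in S in all 3 animals and 7 were lower in all 3, beside 15% and 11.9% of all genes. In control 8 were higher and 7 lower, beside 21.8% and 11.8% of all genes. Kcng3, Kcnq5 and Kcnk12 were higher in S in all 3 animals of both genotypes. The share of all genes that meet this in both genotypes was not counted, so whether 3 of 72 exceeds it was not tested.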

How the data were processed

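Total RNA of hippocampal slices was hybridised to 12 arrays. The deposited values are signal intensities on a linear scale, which the authors made with PLIER and quantile normalization. The arrays' medians still ran from 36.5 to 58.1, so that the scaling was varied. They were taken to log2 with a floor of 1. Differences were fitted with limma 3.58.1 in R 4.3.3 on all 41345 clusters (23521 with a single symbol) and 12 arrays, with a coefficient for each of the 4 groups, eBayes with an intensity trend and Benjamini-Hochberg adjustment. The methods' test is a one-way ANOVA, run here on the log2 signals, with only the fold change taken from Tukey bi-weight averages. Replicates are 3 animals per group, which limits the precision.

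The named genes are those past the filter, the 5 of smallest p in each comparison, the 3 of largest SD, the 2 on each side of the dim threshold, and members known from hippocampal neurons, glia, vessels and choroid plexus. Others are given by family. The genes, lists and tests were chosen with earlier results of these data, Kcnh8 among them, already known. The labels give B and S slices of the same number and genotype 1 animal. Residuals of such pairs correlated at 0.55, 0.39 and 0.19 in Ptpn11D61Y and 0.05, -0.01 and 0.04 in control. Arrays of the same number but different genotypes, so different animals, correlated at 0.56, 0.36 and 0.19 in B. In S they correlated at 0.12, 0.04 and 0.18. These correlations cannot tell a shared animal from a shared number. The animal was tried as a replicate block. Other alternatives were the methods' test, the 6 arrays compared alone, centred or requantiled arrays, an offset of 16, dim clusters left out and each array left out. Leaving out the arrays numbered 1 and array weights were chosen after seeing the data. The code was tested on simulated data.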

Additional observations from a re-analysis of the deposited data

Results flagged for a closer look

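The S minus B response of Kcnh8 differed between the genotypes by an interaction of 1.36 ± 0.47 on the log2 scale (unadjusted p = 0.0131, adjusted p = 1, limma), which is what drew attention to it. The response was 0.41 ± 0.33 in Ptpn11D61Y, higher in S in 2 of 3 animals, and -0.95 ± 0.33 in control, lower in S in 3 of 3 animals. Kcnh8 passed the filter for the interaction in all 21 alternatives run, with values of 0.99 to 1.65, and 0 of 72 genes passed an adjusted p of 0.05. With either replicate block the value could not move from 1.36. The cause of the difference was not tested.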

How the results depend on the processing

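In Ptpn11D61Y B vs. control B, where 0 of the 72 genes passed, 2 passed with the quantile normalization repeated (Kcnf1 and Kcng2), 1 with the number as a fixed replicate block (Kcnf1), and 5 each without the arrays numbered 1 and with array weights; leaving out 1 array gave 0 to 2. These 2 came without control B replicate 1 (Kcnf1, Kcnq5) and without Ptpn11D61Y B replicate 2 (Kcne2, Kcng2), and 1 passed without Ptpn11D61Y B replicate 1 (Kcna7) and without control B replicate 2 (Kcnh5). In control S vs. B, where 2 passed, 1 passed with the methods' test, on the 6 arrays compared, with an offset of 16 and without the arrays numbered 1, and 4 passed with the animal as a random or the number as a fixed replicate block; leaving out 1 array gave 0 (without control B replicate 3) to 4 (without control B replicate 2 or control S replicate 3). It gave 1 without control B replicate 1, control S replicate 1, any array of Ptpn11D61Y B, or Ptpn11D61Y S replicate 2 or 3. In Ptpn11D61Y S vs. B, where 0 passed, 1 passed (Kcnf1) on the 6 arrays compared, with centred arrays, with repeated quantile normalization and with either replicate block, 4 without the arrays numbered 1 and 7 with array weights. Leaving out 1 array gave 0 to 2, with 2 without Ptpn11D61Y B replicate 2 (Kcne2, Kcnk16) or Ptpn11D61Y S replicate 1 (Kcng3, Kcnk16), and 1 without replicate 3 of Ptpn11D61Y B or replicate 2 of Ptpn11D61Y S (Kcnk16) and without replicate 1 or 3 of control B (Kcnf1). In Ptpn11D61Y S vs. control S, where 1 passed, 2 passed without the arrays numbered 1 and with array weights (Kcnh8 and Kcnj2), and leaving out 1 array gave 1 to 1. For the interaction, where 1 passed, 2 passed with the number as a fixed replicate block, 3 without the arrays numbered 1 and 5 with array weights, and leaving out 1 array gave 1 to 2, with 2 without control B replicate 1 or 2. With array weights Kcne2 was among the genes past the filter in Ptpn11D61Y S vs. B (-2.48), in Ptpn11D61Y B vs. control B (2.15) and for the interaction (-2.27). Ptpn11D61Y B replicate 3, the array with the choroid plexus signal, had a weight of 2.90. Replicates 1 and 2 of Ptpn11D61Y B had weights of 0.27 and 0.97. The share of all genes past the filter moved too. It was 4.05% in Ptpn11D61Y B vs. control B and 4.203% in Ptpn11D61Y S vs. B with array weights and 2.41% and 2.29% without the arrays numbered 1, against 0.599% and 0.277% otherwise. The fits that leave arrays out also hold fewer arrays. The cause of these moves was not tested.

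Kcnh8 passed in all 22 alternatives in Ptpn11D61Y S vs. control S (0.93 to 1.76) and in 19 of 22 in control S vs. B, missing with repeated quantile normalization (-0.71) and without control B replicate 3 or control S replicate 1. Kcnh4 passed in 7 of 22. These alternatives are not independent of one another. Leaving out an array of a group outside the comparison kept the log2 fold change, as did either replicate block. For Kcnh8 it stayed at 1.47 and -0.95 in those fits, so that only the p-value could move. Centring the arrays moved the median of all genes in control S vs. B to 0.25, against 0.05 without it, and 1 of the 2 genes past the filter was then higher (Kcnh5). Signal over background limits the 9 dim genes, and the smallest adjusted p (limma) was 0.567 without the arrays numbered 1 and 0.201 with array weights.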
